A study of Mus musculus with 18 samples.

Results

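The late drift of cells without Ezh2 was read by setting 2 arrays of day 32 after tamoxifen against 2 arrays of day 18, that is 4 of the 8 time course arrays and 4 of the 18 arrays of the series. The members were taken from the array titles alone, and the comparison covered 18820 genes. All 8 time course arrays came from C2, a clone grown by limiting dilution from mouse embryonic fibroblasts of genotype Ezh2 flox/Δ;ROSA26-CreERT2 that had been immortalized with c-Myc (iMEFs). Every group therefore shared the c-Myc retrovirus, the tamoxifen-dependent Cre recombinase, expressed from the ROSA26 locus, and 1 already deleted Ezh2 allele. The groups were vehicle (EtOH, Ezh2 still present) and cells at 5, 18 and 32 days after tamoxifen, which lets Cre remove the remaining allele, with 2 arrays each. The rescue experiment on the same clone gave 10 further arrays, namely control cells that kept Ezh2, Ezh2 null cells, pre-rescue cells that received Ezh1 or Ezh2 from an MSCV retrovirus before the deletion, and post-rescue cells that received Ezh2 after it. No vehicle arrays were labelled with a late day, so time without Ezh2 and time in culture cannot be told apart. A single clone stood for all groups, and nothing in the labels says that replicates were separate cultures. The spread behind each p-value may thus be no more than technical.

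Ezh2 is the enzyme of Polycomb repressive complex 2 (PRC2) that methylates lysine 27 of histone H3, a mark kept on silent developmental genes. When the enzyme is lost the mark is no longer renewed at replication and thins out as cells divide, so silent genes can come on at different times after the deletion. Ezh1, a related enzyme, can take part of its place. Fibroblasts are the matrix-producing cells of connective tissue, and embryonic fibroblasts in culture keep active interferon, sterol and growth factor pathways that respond to the state of the culture.

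Between day 18 and day 32, 14 genes rose and 30 fell at an adjusted p under 0.05 and at least 2-fold, together 0.234% of the genes tested. The higher genes made up 0.0744% and the lower ones 0.159%. The 14 that rose were led by Ppfia2 (5.23-fold), for a scaffold of nerve terminals, and Mgat4c (3.99-fold), for a glycosyltransferase. The 30 that fell were led by Chodl (5.69-fold), the interferon gene Ifit3 (3.72-fold), the glypican gene Gpc3 (3.41-fold) and the growth factor gene Igf2 (3.07-fold). At any fold 264 genes (1.4%) were higher and 517 (2.75%) lower, and the median change of all genes was 0.006 on the log2 scale. With each array centred on its own median that split became 408 higher against 423 lower. The 13 days from day 5 to day 18 gave 493 genes higher (2.62%) and 384 lower (2.04%) at 2-fold, 4.66% in all, a comparison that uses the same day 18 arrays. All 44 genes had day 32 arrays on 1 side of both day 18 arrays, as did 26.9% of all genes on the higher and 25.1% on the lower side.

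**Figure D1:**
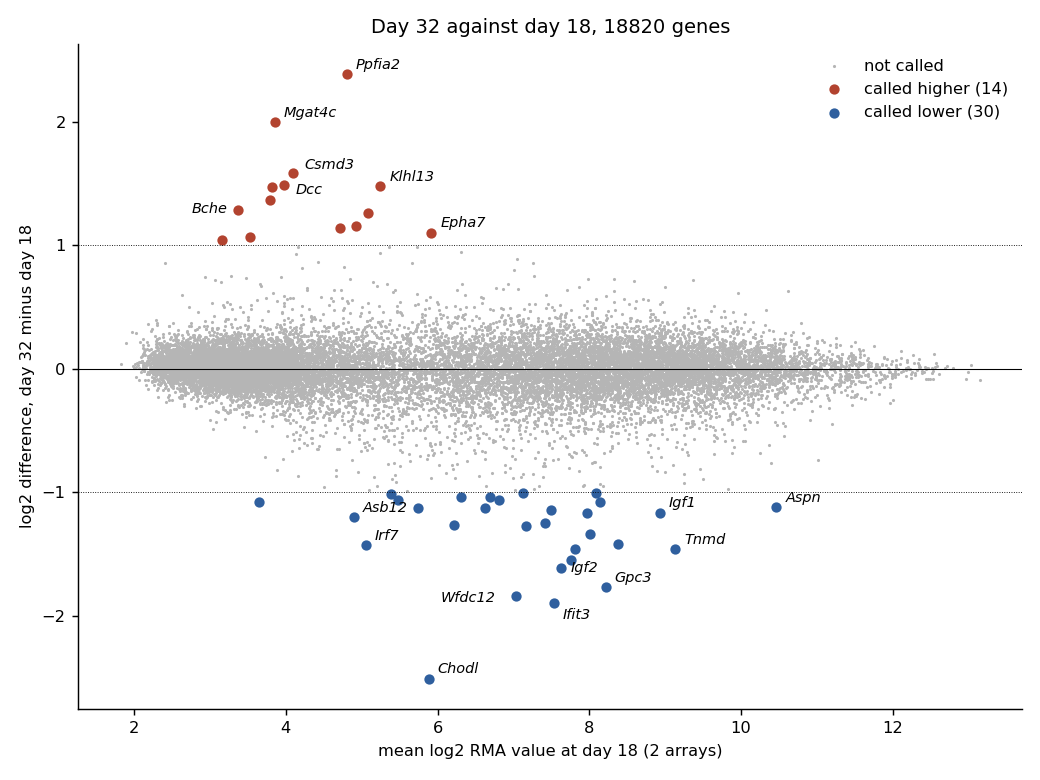
Log2 difference, day 32 minus day 18, of each gene (vertical axis) against its mean log2 value over the 2 day 18 arrays (horizontal axis), for 18820 genes, with the 14 called higher in red, the 30 called lower in blue and 2-fold limits dotted. The genes called higher sit at day 18 levels from 3.16 to 5.91, while the genes called lower reach from 3.65 to 10.47.

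Ezh2 itself gave no sign of its deletion on these arrays. Which exons its probe set reads was not analysed here, so it does not serve as a check of the labels. Its log2 values were 9.37 and 9.43 with vehicle, 9.80 and 9.63 at day 18, then 9.73 and 9.81 at day 32 (limma adjusted p = 0.791 for day 32 against day 18), and the control and Ezh2 null arrays of the rescue experiment read 10.36, 10.56, 10.46 and 10.48. Cpa6, a carboxypeptidase gene that the study followed as a gene silenced by Ezh2, stood at 3.37 and 3.26 with vehicle, 3.46 and 3.81 at day 5 and 7.91 and 8.12 at day 18. It read 7.97 and 7.80 at day 32 (adjusted p = 0.663), so the day 18 and day 32 arrays were far above vehicle, the day 5 arrays were not, and no change of Cpa6 after day 18 passed the test. Ezh1 fell from 8.51 and 8.44 to 8.14 and 8.10, by 0.36 ± 0.08 on the log2 scale (SE, adjusted p = 0.0357), a call lost in 9 of the other settings tried. It was the 1 gene of 11 PRC2 genes that passed, and 0 of 17 PRC1 genes did. Of all genes 1.4% were higher and 2.75% lower. The cell cycle inhibitor genes Cdkn2a (7.29 and 7.07, then 7.10 and 7.12, adjusted p = 0.744) and Cdkn1a (6.16 and 6.11, then 6.21 and 6.21, adjusted p = 0.687) did not pass. Cdkn2b, for the inhibitor p15, did, going from 7.53 and 7.55 to 6.91 and 6.99 (-0.59, adjusted p = 0.00282), the 1 of 10 genes of cell cycle inhibitors and the retinoblastoma family. In lists this short, counts of 0 or 1 do not stand apart from the shares of all genes.

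Fibroblast markers were present throughout. Of 11 measured, 9 lay above the median gene level on all 4 arrays, and the exceptions were Thy1 and Lum. None of 5 epithelial, 4 endothelial, 4 adipocyte, 5 skeletal muscle or 4 pluripotent markers did so. Of the other types, 1 of 5 smooth muscle markers (Acta2), 2 of 7 of cartilage and bone (Sox9, at 10.54, 10.52, 10.56 and 10.60, and Col2a1), 1 of 4 neuronal (Map2) and 1 of 5 blood cell markers (Cd68) lay above it on all 4 arrays. The log2 sum of the fibroblast markers was 13.61 and 13.57 at day 18, then 13.47 and 13.49 at day 32, while Dcn, Lum and Col1a1 fell. Among blood cell markers Lyz2, the lysozyme gene of macrophages, fell from 6.72 and 6.37 to 5.6 and 5.76 (a difference of -0.865, adjusted p = 0.00604), while Ptprc, the pan-leukocyte marker, was at 3.35, 3.25, 3.36 and 3.4 and did not pass. In bulk RNA, fewer cells of a type and less RNA per cell cannot be told apart.

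The largest rise was that of Ppfia2, which encodes a liprin scaffold of nerve terminals. Its log2 values were 3.82 and 3.78 with vehicle, 3.49 and 3.64 at day 5, 4.83 and 4.77 at day 18, then 7.20 and 7.18 at day 32. The gene was thus near its vehicle level at day 5, higher at day 18 and highest at day 32, with no overlap between the last groups and a difference of 2.39 ± 0.08 (SE, n = 2 and 2, adjusted p = 2.37e-06). Mgat4c, for a glycosyltransferase that branches N-glycans, stayed at 2.79 to 2.88 on the vehicle and day 5 arrays, then read 3.84 and 3.87 at day 18, then 6.07 and 5.63 at day 32 (2.00 ± 0.12, adjusted p = 8.37e-05). Csmd3, for a large membrane protein with complement-like domains, went from 4.16 and 4.04 to 5.73 and 5.64 (1.59 ± 0.14, adjusted p = 0.000547, on the brightest of its 7 probe sets). With probe sets averaged, 13 genes were called higher in place of 14. Csmd3 alone of the 14 had several probe sets, so the lost call was probably that of Csmd3.

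Of the 14, 3 were on the axon guidance list, which held 50 of the 18820 genes. Dcc encodes the receptor for netrin and read 4.14 and 3.82 at day 18, then 5.27 and 5.67 at day 32 (1.49 ± 0.15, adjusted p = 0.000923). The ephrin receptor genes Epha4 and Epha7 rose as well. Epha4 went from 4.90 and 4.94 to 6.05 and 6.10 (1.16 ± 0.09, adjusted p = 0.000348), with tight replicates. Epha7 had already come up by day 18, from 3.83 and 3.49 with vehicle to 5.91 and 5.92, and read 6.65 and 7.38 at day 32 (1.1 ± 0.2, adjusted p = 0.0183). That call was lost in the fit of 4 arrays (adjusted p = 0.0608) and without day 18 replicate 1 (0.115), day 18 replicate 2 (0.0819) or day 32 replicate 2 (0.0544, with a difference of 0.74). Dpysl3, for a protein that relays semaphorin signals in growing axons, went from 4.64 and 4.8 to 5.96 and 5.76, a call lost without day 18 replicate 1 (adjusted p = 0.0614) or day 32 replicate 1 (0.0511). Over all 50 axon guidance genes 6 passed as higher and 3 as lower (adjusted p under 0.05, any fold), with a median of -0.009. Of all genes 1.4% were higher and 2.75% lower. The lower ones included the plexin gene Plxna2 (7.58 and 7.59, then 6.83 and 6.89) and Slit3, for a secreted guidance cue (8.34 and 8.41, then 7.92 and 7.78). The 6 higher genes became 2 without day 18 replicate 1, without day 18 replicate 2 or without day 32 replicate 2, and 4 without day 32 replicate 1. On the neuronal list of 17 genes 0 were higher and 1 was lower, Gap43, for a protein of growing axons (5.02 and 5.07, then 4.46 and 4.36, -0.63, adjusted p = 0.00709), and its median was 0.002.

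The other genes that rose belong to varied tissues. Sis, the sucrase gene of the gut lining, read 3.82 on both day 18 arrays and 5.44 and 5.15 at day 32 (1.48 ± 0.10, adjusted p = 0.000187). Nts, for the peptide neurotensin, went from 3.76 and 3.83 to 5.18 and 5.14, and Bche, for butyrylcholinesterase, from 3.23 and 3.52 to 4.51 and 4.82. Neither pair of groups overlapped, and the differences were 1.37 ± 0.10 and 1.29 ± 0.13. Ms4a4d (1.26), Clec14a (1.07) and Rassf9 (1.04) were smaller rises. The call of Rassf9 was lost in the fit of 4 arrays (adjusted p = 0.0817), without day 18 replicate 1 (0.169) and without day 32 replicate 2 (0.0999). Klhl13, for an adaptor of a ubiquitin ligase, had the widest replicates of the set, 5.57 and 4.92 at day 18, then 7.13 and 6.31 at day 32 (1.48 ± 0.33, adjusted p = 0.0421). Its call was lost without either day 18 array, without either day 32 array, without either day 5 array and in the fit of 4 arrays alone, with adjusted p-values of 0.0527 to 0.217 in the fits without 1 array.

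All 14 were highest at day 32 among the 4 groups. Their vehicle means lay between 2.81 and 4.18, all below the median gene level of 5.64, and against vehicle 0 of the 14 were called at day 5, where 1.15% of all genes were. Their day 32 means ran from 4.20 to 7.19.

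**Figure D2:**
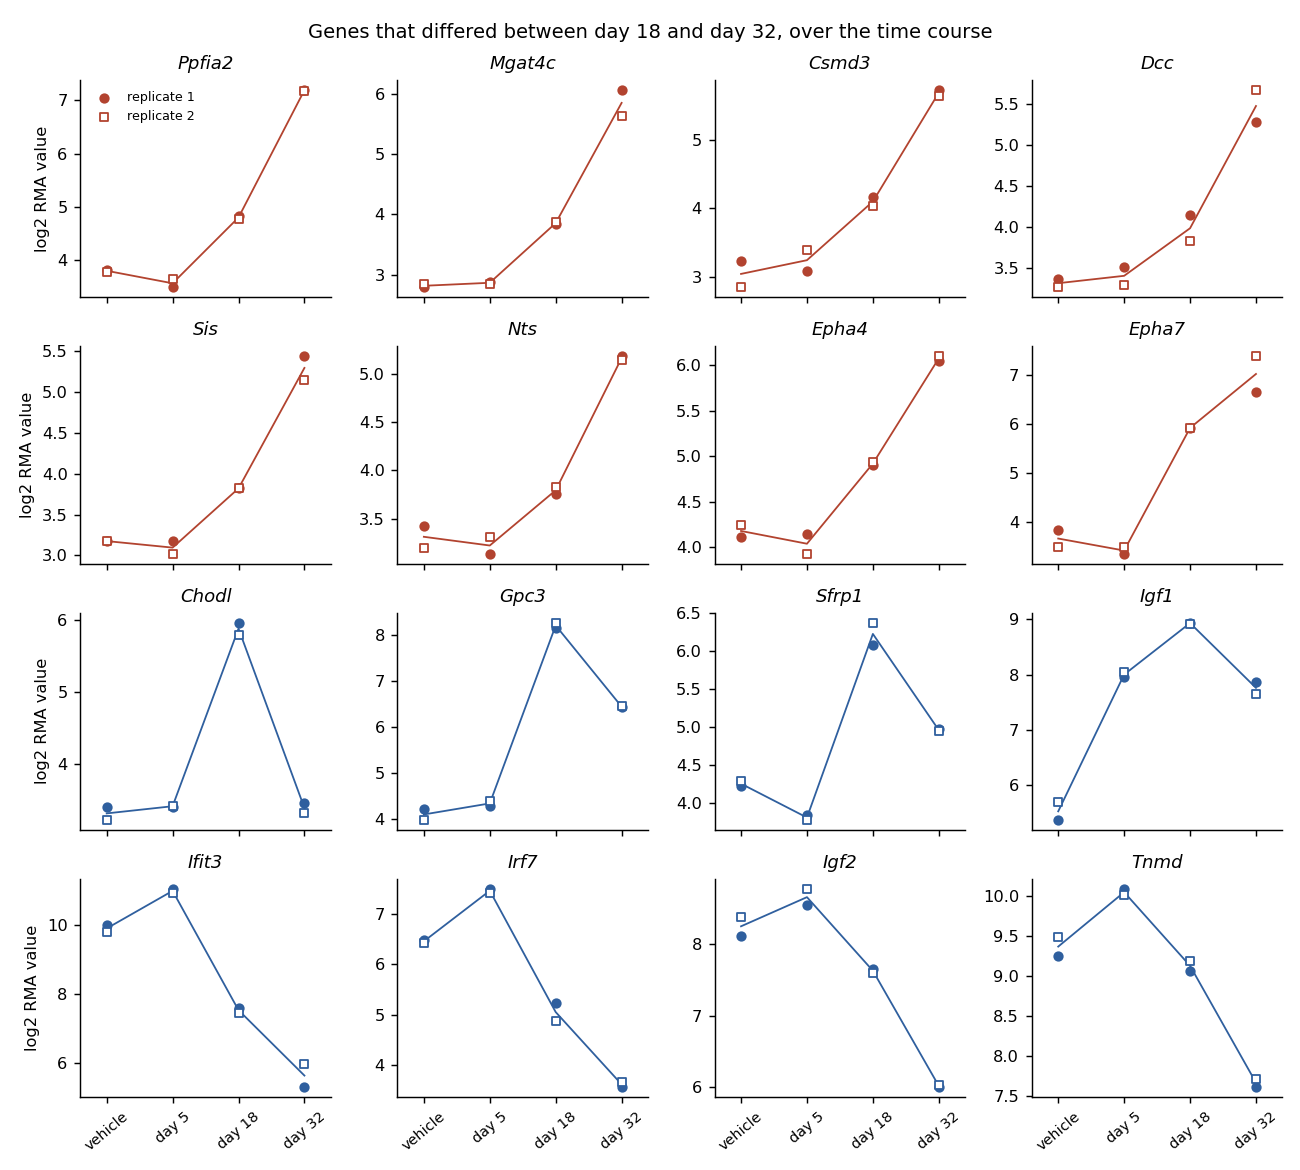
Log2 value of 16 genes on each of the 8 time course arrays, with vehicle, day 5, day 18 and day 32 along the horizontal axis, 1 symbol per array, a line through the group means, red for genes called higher and blue for genes called lower at day 32 against day 18. Chodl is back at 3.45 and 3.31 at day 32 after 5.97 and 5.80 at day 18, whereas Ppfia2 goes on to 7.20 and 7.18.

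The 30 genes that fell mostly followed either of a pair of courses. In 19 of them day 32 was the lowest of the 4 groups, 9 were highest at day 18 without being lowest at day 32, and 2 did neither (Tnn and E330013P04Rik). Chodl, for the membrane lectin chondrolectin, is the clearest of the transient genes. It read 3.4 and 3.21 with vehicle, 3.4 and 3.41 at day 5, 5.97 and 5.80 at day 18, then 3.45 and 3.31 at day 32. The difference of -2.51 ± 0.10 (adjusted p = 4.56e-06) brought it to the range of the vehicle and day 5 arrays.

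Gpc3, for a cell surface proteoglycan that binds growth factors and Wnts, came down only part of the way. It read 4.23 and 3.98 with vehicle, 8.15 and 8.28 at day 18, then 6.44 and 6.46 at day 32 (-1.77 ± 0.10, adjusted p = 5.4e-05). Mir717, a microRNA gene inside the span of Gpc3, followed at a low level, from 3.76 and 3.53 to 2.53 and 2.62. Sfrp1, a secreted Wnt antagonist, read 4.22 and 4.28 with vehicle, 6.07 and 6.37 at day 18, then 4.97 and 4.94 at day 32 (-1.27 ± 0.10, adjusted p = 0.000317). Asb12, for a protein with ankyrin repeats, went from 2.98 and 3.09 with vehicle to 4.90 and 4.89 and back to 3.62 and 3.75. Igf1, the insulin-like growth factor gene, had risen to 7.96 and 8.04 by day 5 from 5.37 and 5.69 with vehicle, stood at 8.94 and 8.92 at day 18 and was 7.87 and 7.65 at day 32 (-1.17 ± 0.12, adjusted p = 0.000923). Sncaip, Tfec and Fhl1 were the remaining genes highest at day 18 without being lowest at day 32.

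Other genes went below every earlier group. Igf2, the fetal growth factor, read 8.12 and 8.39 with vehicle, 8.55 and 8.78 at day 5, 7.66 and 7.60 at day 18, then 6.0 and 6.02 at day 32 (-1.62 ± 0.11, adjusted p = 0.000136). Trp53inp1, a target of p53 that acts in autophagy and cell death, fell from 9.54 and 9.53 with vehicle through 7.83 and 7.80 to 6.37 and 6.34 (-1.46 ± 0.07 for the last step, adjusted p = 1.61e-05). Its replicates were among the tightest of the set. Of the 22 genes of the p53 target list, Trp53inp1 and Sesn1 were lower (9.1%) and 0 were higher, with a list median of 0.014. Of all genes 2.75% were lower and 1.4% higher. The 2 lower genes became 1 in the fit of 4 arrays and with the replicate block. Wfdc12, for a secreted protease inhibitor, was highest at day 18 as well as lowest at day 32. It read 6.48 and 6.57 with vehicle, 5.53 and 5.70 at day 5, 7.09 and 6.98 at day 18, then 5.22 and 5.15 at day 32 (-1.84 ± 0.09, adjusted p = 1.61e-05). Apod, for a lipid carrier, read 9.70 and 9.74 with vehicle, 8.08 and 7.95 at day 18, then 6.75 and 6.61 at day 32. The immediate early genes Egr2 (8.61 and 8.16, then 7.09 and 6.84) and Nr4a1 (8.20 and 8.07, then 7.07 and 7.04) fell too. The call of Egr2 was lost without day 18 replicate 1 (adjusted p = 0.0558) and without day 32 replicate 2 (0.0586).

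Some genes of connective tissue were among the 30. Tnmd, a marker of tendon cells, read 9.25 and 9.49 with vehicle, 10.09 and 10.01 at day 5, 9.07 and 9.19 at day 18, then 7.62 and 7.72 at day 32 (-1.46 ± 0.10, adjusted p = 0.000136). Aspn, the small proteoglycan asporin, went from 10.44 and 10.49 to 9.54 and 9.15, and Tnn, a tenascin of bone and tendon, from 7.42 and 7.40 to 6.13 and 6.18. Adamtsl1, a secreted protein of the matrix, went from 7.14 and 7.18 to 5.89 on both arrays. On the list of 42 matrix and fibroblast genes 9 were lower, 1 was higher and 32 did not pass, with a median of -0.092. The proteoglycan genes on it included Dcn (8.82 and 8.83, then 8.01 and 8.06), Lum (5.13 and 5.05, then 4.00 and 4.23) and Prelp (9.09 and 9.12, then 8.41 and 8.24). The higher gene was Ccn2, a target of stretch and TGF beta signalling (9.29 and 9.44, then 10.11 and 10.06, adjusted p = 0.0324). Of 34 collagen genes, 1 passed, which was Col1a1, at -0.47 (adjusted p = 0.0326), a call lost without any 1 of the 4 day 18 and day 32 arrays and with quantile normalization. The collagen median was -0.048. Of 22 matrix protease genes 4 were lower (Mmp19, Adamts5, Adamts4 and Adam12), against 2.75% of all genes. The protease median was -0.224. Without 1 of the 4 day 18 and day 32 arrays the 9 matrix genes became 5, 5, 6 and 3, and the 4 protease genes 2, 1, 1 and 1, in the order day 18 replicate 1 and 2 and day 32 replicate 1 and 2.

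A majority of the interferon response genes on the list, 19 of 36, were lower at day 32. Their products, made when cells sense viral nucleic acid or interferon, block viral replication. The other 17 did not pass and 0 were higher, against 2.75% lower and 1.4% higher of all genes, and 5 of the 19 passed 2-fold (Ifit3, Ifit1, Irf7, Rtp4 and Oasl2). The list median was -0.484. Its level, as the median over the 36 genes, was 6.76 and 6.61 with vehicle, 7.94 and 7.99 at day 5, 6.31 and 6.28 at day 18, then 5.67 and 5.82 at day 32. The list thus stood above vehicle at day 5 and below it from day 18 on. Day 5 against vehicle shares no array with the late comparison, though both take their variance from the same fit of 8 arrays. It gave 31 of the 36 higher and 0 lower at any fold, where 11% and 5.72% of all genes were. Without day 18 replicate 1 the 19 lower genes became 9, without day 18 replicate 2 they became 16, and without day 32 replicate 1 or replicate 2 they became 11.

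Ifit3, which binds foreign RNA with its relatives, read 10.00 and 9.78 with vehicle, 11.03 and 10.92 at day 5, 7.60 and 7.46 at day 18, then 5.32 and 5.96 at day 32 (-1.89 ± 0.18, adjusted p = 0.000718). Ifit3 and its copy Ifit3b are near identical, so their probes may share signal. The neighbouring Ifit1 went from 7.78 and 7.73 to 6.16 and 6.26 (-1.55 ± 0.09, adjusted p = 8.37e-05). Irf7, the transcription factor that amplifies the response, went from 5.24 and 4.87 to 3.58 and 3.67 (-1.43 ± 0.11, adjusted p = 0.000348). The sensors Ifih1 (-0.56), Dhx58 (-0.77) and Ddx58 (-0.48) and the signalling factor Irf9 (-0.76) were lower as well, while Stat2 was at -0.37 and did not pass (adjusted p = 0.0647). Oas1a (0.29) and Oas3 (0.24), which make the signal that activates an RNA-cutting enzyme, had differences above 0 that did not pass, and Oas2 stood at -0.06. Among chemokines and cytokines 5 of 33 were lower, including Ccl5 (7.33 and 7.20, then 6.27 and 6.31), Cxcl10 (9.03 and 8.86, then 8.07 and 8.40) and Cxcl9 (5.16 and 5.36, then 4.73 and 4.85), which are chemokine genes that interferon also induces. The other lower ones were Ccl3 and Cxcl12, and the list median was 0.001. Without 1 day 18 or day 32 array the 5 became 3, 3, 1 and 2, in the order given for the matrix genes. Of 12 antigen presentation genes 1 was lower, Tapbp, a loading factor of class I molecules (9.02 and 8.78, then 8.22 and 8.28).

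The promoters of these genes were read for the interferon-stimulated response element, searched as GAAA, any 2 bases and GAAA on both strands of the 250 bases before the start (RefSeq, GRCm38.p6). It lay in 504 of 14739 promoters (3.4%), and in 11 of the 25 promoters of the list that the table held (44.0%). Of the 14 promoters of lower genes 5 carried it (35.7%), those of Ifit1, Ifit3, Ifit3b, Rsad2 and Gbp3, and the other 6 belonged to list genes that did not pass. The element was thus no more frequent among the lower genes than over the whole list. The 4 stretches shown are the promoters of lower genes with the element, written 5′ to 3′ in the direction of the gene with matches in capitals (all 4 hold it on the other strand, so it reads TTTC, 2 bases and TTTC). They lie at chr19:34640769-34640848 on the plus strand (Ifit1), chr19:34583372-34583451 on the plus strand (Ifit3), chr12:26456528-26456607 on the minus strand (Rsad2) and chr3:142559964-142560043 on the plus strand (Gbp3).
Ifit1: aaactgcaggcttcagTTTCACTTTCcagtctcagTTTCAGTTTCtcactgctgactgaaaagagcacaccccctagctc
Ifit3: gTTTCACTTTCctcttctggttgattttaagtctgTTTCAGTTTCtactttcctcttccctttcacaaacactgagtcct
Rsad2: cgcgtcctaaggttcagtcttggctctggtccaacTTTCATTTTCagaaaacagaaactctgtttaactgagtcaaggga
Gbp3: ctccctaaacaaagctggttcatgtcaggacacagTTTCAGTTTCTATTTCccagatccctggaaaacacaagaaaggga

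Ifit1 and Ifit3 hold 2 separate matches each in the stretches shown, Gbp3 2 that overlap and Rsad2 1. Rsad2, for the antiviral protein viperin, moved least of the 4, from 5.07 and 4.99 to 4.47 and 4.61 (-0.49, adjusted p = 0.0442), and Gbp3, for a guanylate-binding protein, went from 7.10 and 6.89 to 5.85 and 6.37 (-0.89, adjusted p = 0.0132). Irf7, which fell by 1.43, had no match to these letters in its window.

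Sterol synthesis genes were lower as a list. The pathway makes cholesterol from acetyl-CoA and is switched on when membranes lack sterol. Of 20 measured genes 12 were lower and 0 higher, against 2.75% lower and 1.4% higher of all genes. The list median was -0.391, and every member had a difference below 0 (-1.13 to -0.14). Its median level was 10.05 and 10.16 with vehicle, 9.46 and 9.4 at day 5, 9.74 and 9.85 at day 18, then 9.39 and 9.32 at day 32, so the list was low at day 5, nearer vehicle at day 18 and low again at day 32. At day 5, 19 of the 20 had been lower than with vehicle, where 5.72% of all genes were. Hmgcs1, an early enzyme, went from 10.04 and 10.06 to 9.53 and 9.4, and Insig1, which holds the pathway back when sterol is plentiful, from 10.39 and 10.35 to 9.77 and 9.74. Late steps gave Nsdhl (9.93 and 9.89, then 9.31 and 9.25) and Tm7sf2 (6.60 and 6.65, then 5.45 and 5.54, -1.13 ± 0.08, adjusted p = 0.000233), the 1 member past 2-fold. Acss2, which makes acetyl-CoA from acetate, went from 8.16 and 7.79 to 6.79 and 6.83 (-1.17 ± 0.12), and it was 1 of 3 lower genes among 18 of fatty acid synthesis and storage, beside Scd1 and Fads1, and the 3 became 1 without any 1 of the 4 arrays. The 12 lower sterol genes became 5 without either day 18 array or without day 32 replicate 1, and 3 without day 32 replicate 2. The sterol response element, searched as ATCAC followed directly by CCCAC, lay in 10 of all 14739 promoters (0.1%) and in 0 of the 16 of this list. An exact sequence this rare would hardly be met in 16 promoters, so the 0 does not show that they lack the element. CCAAT lay in 16 of these 16 and in 39.1% of all. Of the 16, 11 belonged to lower genes, so it did not set them apart within the list. CCAAT also lay in 21 of 26 promoters of the proliferation list (80.8%), in which 0 genes passed.

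**Figure D3:**
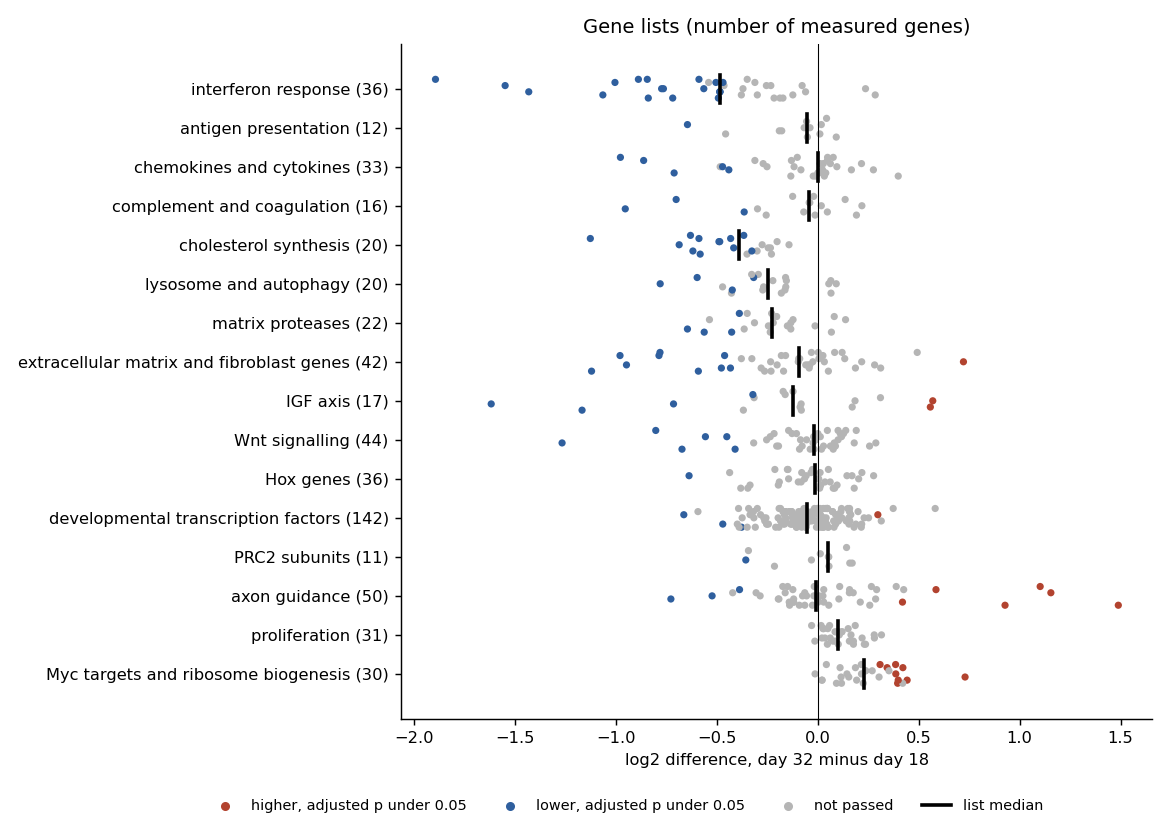
Log2 difference, day 32 minus day 18, of each measured gene of 16 lists (horizontal axis), 1 row per list with the number of genes in brackets, black bars at the list medians, and colour for genes past an adjusted p of 0.05. The interferon list has 19 blue points of 36 and the cholesterol list 12 of 20, while the Myc and ribosome list has 9 red points of 30 and a median of 0.231.

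On the list of 30 Myc targets and ribosome biogenesis genes 9 were higher, 0 were lower and 21 did not pass. Of all genes 1.4% were higher and 2.75% lower. The list had a median of 0.231. Its median level was 9.33 and 9.39 with vehicle, 9.59 and 9.72 at day 5, 9.76 and 9.77 at day 18 and 10.16 on both day 32 arrays. Rrp9, needed to process ribosomal RNA, went from 8.17 and 8.47 to 9.02 and 9.08 (0.73, adjusted p = 0.00529). Nop2, a ribosomal RNA methyltransferase, went from 9.81 and 9.78 to 10.22 on both arrays (0.42, adjusted p = 0.0109), and Cad, which starts pyrimidine synthesis, from 8.81 and 8.87 to 9.27 and 9.30. These were small changes, and their count leaned on each array, since 9 became 1 without day 18 replicate 1 or 2, 2 without day 32 replicate 1, 0 without day 32 replicate 2 and 5 without either day 5 array. Of 31 proliferation genes 0 passed, with differences from -0.03 to 0.32 and a median of 0.102 (limma, where 3539 genes had an unadjusted p under 0.05). Among 24 genes of the integrated stress response and amino acid supply 3 were higher, led by the cystine transporter Slc7a11 (6.23 and 6.38, then 7.24 and 7.26, 0.95, adjusted p = 0.000638), and Atf3, a stress-induced repressor, was lower. Without any 1 of the 4 day 18 and day 32 arrays the 3 became 1.

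Signalling genes that had come up by day 18 were among the rest. On the IGF list of 17 genes, Igf1, Igf2, Igfbp5 and Insr were lower and Igfbp6 and Pappa higher. Without 1 day 18 or day 32 array the 4 lower ones became 2, 3, 3 and 3 and the 2 higher ones 0, 1, 0 and 0, in the order given for the matrix genes. Igfbp5, a secreted binding protein, read 5.37 and 5.29 with vehicle, 7.80 and 7.74 at day 18, then 6.90 and 7.21 at day 32. On the Wnt list of 44 genes 6 were lower and 0 higher, against 2.75% and 1.4% of all genes. They included Sfrp1, the antagonist Wif1 (6.85 and 7.06, then 6.03 and 6.27) and the agonist Rspo2 (9.22 and 9.36, then 8.75 and 8.49). The other lower genes were those of the receptor Fzd1, the intracellular inhibitor Nkd1 and the nuclear factor Lef1. Agonists and antagonists of the pathway were thus both among them. Without 1 day 18 or day 32 array the 6 became 1, 1, 2 and 2, in the same order as above. Aldh1a1, an enzyme that makes retinoic acid, stood at 3.90 and 4.20 with vehicle and 8.77 and 8.86 at day 18 and fell to 8.17 and 8.03 at day 32 (-0.72, adjusted p = 0.00758). With Aldh1a7 it made 2 lower genes of 17 retinoid genes, which became 1, 0, 2 and 0 without 1 of the 4 arrays.

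Smaller groups of lower genes came from secretory and degradative functions. Of 16 complement and coagulation genes 3 were lower, C1s1, a protease that starts the classical cascade (7.45 and 7.23, then 6.37 and 6.41), Serping1, its inhibitor (5.75 and 6.14, then 5.37 and 5.13), and C1rl. Of 20 lysosome and autophagy genes 4 were lower (Hexa, Wipi1, Neu1 and Lamp2), against 2.75% of all genes. The median of that list was -0.245. Without 1 day 18 or day 32 array, in the order given above, the complement count became 2, 1, 2 and 1 and the lysosome count 0, 2, 2 and 0. Single lower genes were Aldoc, a glycolytic enzyme (9.91 and 9.75, then 8.74 and 8.97), among 31 glycolysis and hypoxia genes, Xbp1 among 16 of the unfolded protein response, Tgfb2 among 37 of TGF beta and BMP signalling, Mylk among 14 smooth muscle genes and Alpl among 23 of cartilage and bone. Aldoc passed without each of the 4 arrays in turn, Xbp1, Tgfb2 and Alpl were lost each time, and Mylk was lost without day 18 replicate 1 or day 32 replicate 2. Of 33 genes for FGF, PDGF and EGF ligands and receptors Fgf10 and Fgfr2 were lower and Met, the receptor for hepatocyte growth factor, was higher (6.26 and 6.46, then 6.89 and 7.02). Without 1 of the 4 arrays the higher count became 0 and the lower count 0, 1, 1 and 0. Ion channel genes went both ways, with Scn7a (5.58 and 5.87, then 6.48 and 6.94) and Cacnb4 higher and Scn3a (7.32 and 7.25, then 6.54 and 6.59), Kcnq3 and Trpm3 lower of 38, and without day 18 replicate 1 or day 32 replicate 2 all 5 were lost, while 2 and 1 stayed past the test without day 18 replicate 2 and day 32 replicate 1. The lists of 18 integrin, 16 DNA methylation and H3K27 demethylation, 8 histone and 18 germline genes held 0 calls in these arrays.

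Among gene families known as Polycomb targets the shares of calls were close to those of all genes (2.75% lower and 1.4% higher). Of 36 Hox genes 1 was lower (2.8%), Hoxb13 (6.78 and 6.98, then 6.42 and 6.06, from 4.01 and 3.76 with vehicle). The list held 0 lower genes with the replicate block, in the fit of 4 arrays, with median centring and without day 18 replicate 1, day 18 replicate 2 or day 32 replicate 2. Of 142 developmental transcription factor genes 3 were lower (2.1%) and 1 higher (0.7%), with a median of -0.051. Without 1 day 18 or day 32 array, in the order given above, the lower count became 0, 1, 1 and 0 and the higher count 0, and with median centring 1 was lower. Pax3, of neural crest and muscle precursors, went from 5.05 and 4.93 to 4.43 and 4.22 (-0.66, adjusted p = 0.00604), Ebf2 from 7.13 and 7.21 to 6.79 and 6.61, and Runx3 from 8.21 and 8.23 to 8.53 and 8.51. Of 36 cadherin and protocadherin genes 1 was higher, Pcdh9, which had gone from 4.07 and 4.12 with vehicle to 7.21 and 7.31 at day 18 and read 8.21 and 8.01 at day 32 (0.85, adjusted p = 0.0027).

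Position joined some of the calls, which was seen after the values were known and is given with no test. Mgat4c, Nts and Rassf9 on chromosome 10 are consecutive measured genes in the reference order, and all rose. Ppfia2 ends the same stretch of 9 measured genes, in which 4 were called higher and the other 5 had differences from -0.113 to 0.391, none past the test (lowest adjusted p 0.067, Slc6a15). The 3 measured genes on each side of the stretch did not pass. Sis and Bche on chromosome 3 have 1 measured gene between them, and among lower genes Ifit3 and Ifit1 on chromosome 19 have 2. Promoters within the stretch differ in CpG content, and 150 bases before each start are shown with every CG in capitals, 15 in Ppfia2 (chr10:106470160-106470309, plus strand) and 1 in Nts (chr10:102490419-102490568, minus strand), both from RefSeq GRCm38.p6.
Ppfia2: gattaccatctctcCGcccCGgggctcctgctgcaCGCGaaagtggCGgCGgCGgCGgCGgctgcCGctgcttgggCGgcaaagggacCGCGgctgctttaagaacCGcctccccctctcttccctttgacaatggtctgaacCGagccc
Nts: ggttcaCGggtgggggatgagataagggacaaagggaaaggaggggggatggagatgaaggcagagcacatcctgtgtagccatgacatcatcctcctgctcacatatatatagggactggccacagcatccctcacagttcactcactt

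CpG-rich starts are a known feature of Polycomb targets. The median ratio of observed to expected CpG in 250 bases was 0.34 for the 10 of 14 higher genes with a promoter in the table, 0.35 for 24 of the 30 lower genes and 0.58 for all 14739. Ppfia2 (0.78), Epha7 (0.84) and Bche (1.11) were the higher genes above the median of all promoters, and Nts (0.14), Sis (0.16) and Clec14a (0.25) the lowest. The ratio is relative to the C and G content, and Bche held only 6 CG pairs in 150 bases, against 15 in Ppfia2. Of the 24 lower genes with an entry the range also crossed it, with Nr4a1 at 1.05 and Gpc3 at 0.94.

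Genes on the X chromosome stood lower as a class at day 32, a pattern noticed in the data and given as a description. Among genes at or above the median level, the median difference was -0.157 over 300 X-linked genes, 79.7% of which were below 0. The X minus autosomal shift of these genes was -0.161, and over genes of all levels it was -0.059. The 19 autosomes had medians from -0.034 to 0.072 and shares below 0 from 32.4% to 59.1%. At any fold 48 X-linked genes (6.68%) were lower, against 1.24% to 4.22% on the autosomes. Against vehicle, the X median minus the autosomal median was -0.035 and -0.065 on the day 5 arrays, 0.020 and 0.007 at day 18, then -0.136 and -0.140 at day 32, so both day 32 arrays lay below all others of the time course. Each of the 4 pairs of a day 32 with a day 18 array gave a shift between -0.168 and -0.137. In the rescue experiment, relative to control, the shift was -0.008 in Ezh2 null replicate 1 and -0.173 in replicate 2, and -0.109 and -0.098 in the Ezh2 post-rescue arrays. The 4 pre-rescue arrays lay between 0.020 and 0.063. Xist, the RNA that coats a silenced X, was at 2.81, 2.87, 2.70 and 2.75 on the day 18 and day 32 arrays and did not pass (adjusted p = 0.476), and the Y-linked genes Kdm5d (7.59, 7.53, 7.51 and 7.35) and Uty (7.51, 7.62, 7.37 and 7.32) were present on all 4.

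**Figure D4:**
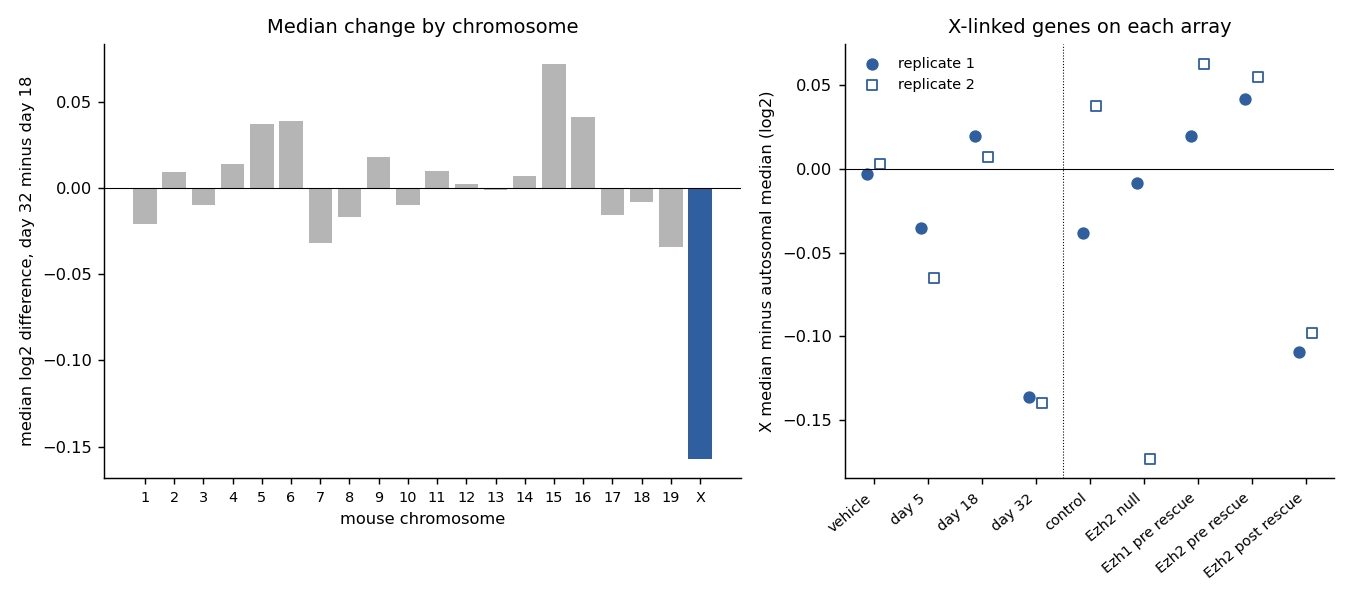
Left, median log2 difference, day 32 minus day 18, of the genes at or above the median level on each chromosome, with X in blue. Right, X median minus autosomal median on each array, relative to the mean of vehicle (time course) or control (rescue experiment, right of the dotted line), 1 symbol per replicate, where day 32 lies at -0.136 and -0.140 and Ezh2 null replicate 2 at -0.173.

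The same 44 genes were read on the rescue arrays, which the comparison did not use. The labels give no day for these cells. Against control, 0 of the 14 genes that rose were called in Ezh2 null cells and 1 of the 30 that fell was, Igf1, which was higher there (5.95 and 6.62 in control, 9.87 and 8.58 in null), where 0.84% of all genes were called (0.627% higher and 0.213% lower). The null replicates differed from each other. In 13 of the 14 genes replicate 2 stood above replicate 1 (median 0.76), and in 29 of the 30 it stood below (median -0.78), against 45% and 55% of all genes. At 2-fold or more were 5 of the 14 and 12 of the 30, beside 0.58% of all genes. Replicate 2 thus lay to the day 32 side of replicate 1 for nearly all of them, with 1 array on each side and no test. For the 14 that sign recurred in the pre-rescue cells, in 11 (Ezh1) and 12 (Ezh2), at medians of 0.079 and 0.083. It did so for 4 in post-rescue and 1 in control cells. Of the 30, 16 (Ezh1 pre-rescue), 6 (Ezh2 pre-rescue), 13 (post-rescue) and 8 (control) were below. In these groups, in that order, 49.5%, 55.1%, 50.1% and 46.2% of all genes were above. The shares of all genes below were 50.5%, 44.9%, 49.9% and 53.8%, so the 16 and the 13 were near them. Against control, null replicate 2 had 14 of the 14 above and 18 of the 30 below, where 41.1% of all genes were above. The 18 of 30 was thus close to the share of all genes below. Null replicate 1 had 13 above and 10 below, where 43.6% of all genes were above.

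Ppfia2 read 5.11 and 4.79 in control, 4.93 in null replicate 1 and 6.89 in null replicate 2, and Mgat4c 4.55 and 4.29, then 4.58 and 6.71. Gpc3 read 5.07 and 5.88 in control, 9.78 in null replicate 1 and 6.88 in replicate 2. Trp53inp1 (9.51 and 7.82), Tnmd (10.38 and 8.17), Igf2 (8.57 and 6.47) and Apod (9.93 and 7.79) were lower in null replicate 2. Nts (5.23 and 5.19) and Nr4a1 (7.94 and 8.22) did not follow. Cells given Ezh2 after the deletion also had high Mgat4c (7.65 and 6.77), Ppfia2 (6.42 and 5.65) and Epha7 (7.39 and 6.57), while Csmd3 (5.13 and 5.22), Dcc (5.02 and 5.02), Sis (4.54 and 4.42), Nts (4.79 and 4.79), Bche (4.32 and 4.12) and Epha4 (5.33 and 5.39) were near control. Over the 14 the median against control was 0.32 and 0.19 in the post-rescue replicates. Both pre-rescue groups had 4.39 to 4.48 of Mgat4c and 4.89 to 5.05 of Ppfia2.

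**Figure D5:**
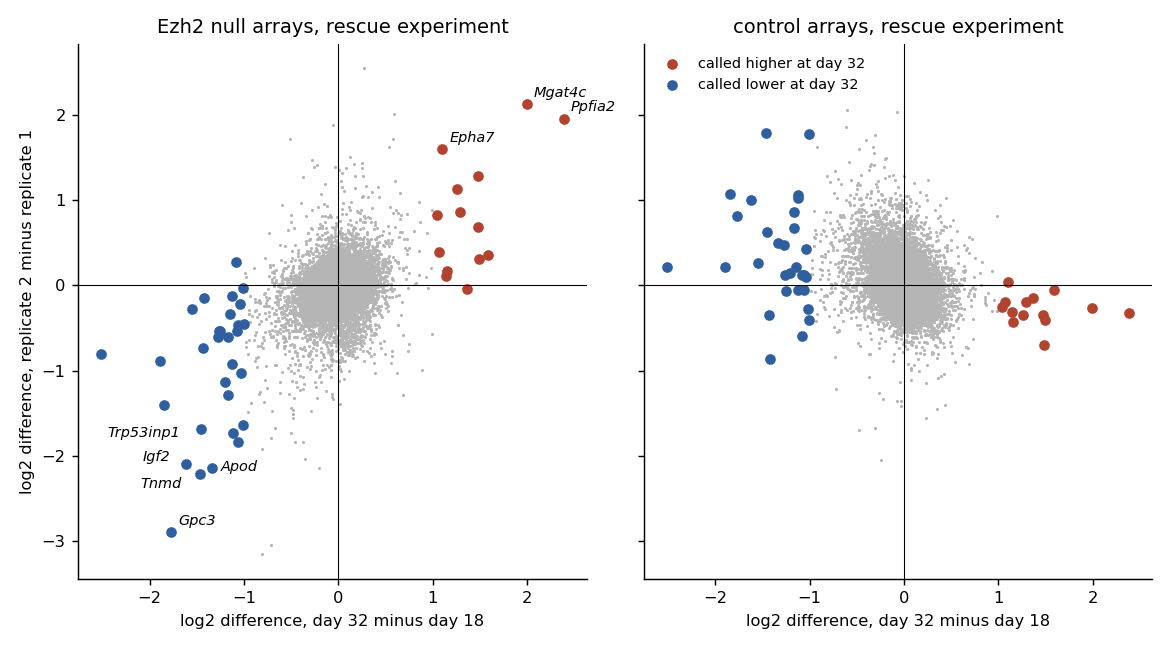
Log2 difference of replicate 2 minus replicate 1 in Ezh2 null cells (left) and control cells (right) of the rescue experiment, against the difference of day 32 minus day 18, 1 point per gene, red and blue for the genes called higher and lower at day 32. On the left 13 of 14 red points lie above 0 and 29 of 30 blue points below it, and on the right 1 of 14 red points lies above 0 and 8 of 30 blue points below.

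Across 18820 genes, which are not independent replicates, the null replicate difference correlated with the day 32 minus day 18 difference at r = 0.307 (rho = 0.221), and the control replicate difference at r = -0.314 (rho = -0.274). The Ezh1 pre-rescue, Ezh2 pre-rescue and post-rescue replicates gave r = 0.024, -0.147 and -0.018. The methods name a correction between first and second replicates of this experiment, and such a step ties the replicate differences of the groups to one another. The mean replicate difference over the 5 groups was within 0.01 of 0 for 18.1% of genes, which does not settle whether the deposited values carry it. A shift common to all groups drops out when the null difference is taken relative to the mean of the other 4 groups. Then 13 of the 14 were above 0 (median 0.79) and 29 of the 30 below (median -0.83), with 44.3% and 55.7% of all genes on those sides. That mean includes control, whose replicates went the other way (medians of -0.287 over the 14 and 0.222 over the 30). A correction that ties the groups to one another could leave such opposite differences, so this step cannot separate it from a difference of the null cells.

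The comparison of day 5 with vehicle shares no array with the late comparison but takes its variance from the same fit. Of all genes 0.967% were called higher there and 0.186% lower. Of the 30 genes that fell late, 6 were called higher there and 2 lower. Those with both movements included Adh1, for alcohol dehydrogenase (9.06 and 8.84 with vehicle, 10.70 and 10.65 at day 5, 8.08 and 8.11 at day 18, 7.17 and 7.0 at day 32) and Oasl2, of the interferon list (8.52 and 8.46, 10.07 and 9.97, 7.21 and 7.05, 5.97 and 6.28). Across all genes the 2 differences had r = -0.024. The limit of 2-fold fell within a continuous range, with Oasl2 at -1.004, Adh1 at -1.01 and Rassf9 at 1.04 just inside it and Rab7b at -0.99, Scn7a at 0.99 and Dach1 at 0.98 just outside, all with an adjusted p under 0.05.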

How the data were processed

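RNA of 18 arrays (Affymetrix Mouse Gene 1.1 ST) was read from the deposited table of log2 values, which per the methods the authors made with RMA in the R package oligo. The authors also describe a limma batch correction between replicates for the rescue experiment. Normalization was separate for the time course and the rescue arrays, so no level was set across them. Of 28440 probe sets 21217 carried 1 gene symbol, 1881 several and 5342 none. Keeping 1 probe set per gene, that with the highest mean, left 18820 genes, 1386 of which had a choice. The 7223 others, fitted apart, gave 3 calls in each direction. The build of the arrays' annotation is not given in the sources used here, and gene order and promoters come from RefSeq.

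The tests came from limma 3.58.1 under R 4.3.3, by lmFit and eBayes, with 1 mean per group over the 8 time course arrays (4 residual and 5.27 prior degrees of freedom), and over the 10 rescue arrays with replicate as a block (4 and 3.62). The study's rank product test was not used. P-values are two-sided with the Benjamini-Hochberg adjustment across the 18820 genes, and the median standard error of a difference was 0.089. Replicates correlated at r of 0.9979 to 0.9985 in the time course, and the number of arrays limits the precision. Same-numbered arrays deviated together at r of -0.07 to 0.055 in the 6 group pairs, which does not make pairs of them.

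Named were up to 15 genes in each direction with the largest change among the 2-fold calls, up to 4 members of each of 46 lists (1155 genes) with the smallest adjusted p, and Ezh2, Ezh1, Cpa6, Cdkn2a and Cdkn1a. The rule leaves predicted genes and small RNAs unnamed, with the exceptions of E330013P04Rik and Mir717, and any other gene named was chosen after its values were seen. The members and lists were chosen with earlier results of these data known, and the X chromosome, neighbouring genes and rescue replicates were looked at after the values. Alternatives were other normalizations, filters, variance models, probe set rules and thresholds, fits of 4 arrays, the replicate block and leaving out each array.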

Additional observations from a re-analysis of the deposited data

How the results depend on the processing

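The counts of 2-fold calls changed by less than 1.5 times. Over the alternatives 11 to 19 genes were higher and 26 to 41 lower, 11 to 19 and 28 to 41 when 1 array was left out, and 40 of the 44 genes were also called after quantile normalization and after median centring. The genes themselves changed more when 1 array was left out, with 34 of the 44 shared of 39 called without day 18 replicate 1, 39 of 60 without day 18 replicate 2, 38 of 48 without day 32 replicate 1 and 36 of 44 without day 32 replicate 2. With the replicate block 44 genes were called, all 44 shared, with 214 higher and 425 lower at any fold. Calls of Klhl13, Epha7, Rassf9, Dpysl3 and Egr2 were lost in some fits without 1 array, and those of Klhl13, Epha7 and Rassf9 also in the fit of 4 arrays. At any fold the counts depended on the fit. Higher genes were 264 as reported, 408 with median centring and 594 with a variance trend and robust fit, and 25 to 305 when 1 array was left out (25 and 108 without day 18 replicate 1 and 2, 65 and 45 without day 32 replicate 1 and 2). Lower genes were 517 as reported, 902 with the trend and robust fit, and 152 to 569 when 1 array was left out (152, 229, 204 and 152 in the same order). With 1 array left in a group, that group was assumed to vary like the others. Day 5 against vehicle gave 117 higher and 67 lower with median centring, in place of 182 and 35. Ezh2 null against control, at 118 higher and 40 lower, gave 65 lower with median centring, and 99 to 193 higher and 24 to 117 lower when 1 array was left out, with 193 and 117 without null replicate 1, 94 lower without control replicate 1 and 24 lower without null replicate 2. In 150 bases the interferon element lay in 267 promoters and the sterol element in 6. The X minus autosomal shift, -0.161, was -0.059 over genes of all levels, -0.178 at levels of at least 8, and -0.134 to -0.161 with 1 array left out, and these alternatives were chosen after seeing the data. Of 1660 values of named genes under the alternatives 1387 kept their direction and side of the threshold, 273 lost the call and 0 changed direction. The causes were not tested.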
